A study of Mus musculus with 7 samples.

Results

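The genes described here build and run the entry to the secretory pathway, the route by which membrane and secreted proteins enter the endoplasmic reticulum (ER), fold there and leave for the Golgi. They were chosen by gene symbol, with earlier results of these data known: the Sec proteins of translocation and vesicle coats, the numbered protein disulfide isomerases (Pdia), the translocon-associated proteins (Ssr), the signal recognition particle (Srp), the signal peptidase (Spcs and Sec11), the COPI coat (Copa to Copz2), and Calr, Canx, Xbp1, Ero1l, Rpn1 and Rpn2. The symbols selected 53 of the 21176 genes in the table. All 7 samples were compared over them, 4 wild-type (WT) and 3 Ngfr KO. Ngfr encodes the nerve growth factor receptor p75, and the labels do not say how the allele was made or whether it is absent from every cell.

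The cells were sorted by flow cytometry as follicular dendritic cells (FDCs), stromal cells of lymphoid follicles that hold antigen for B cells. Both genotypes were male mice, aged 8 to 12 weeks and not immunised, and each sample combined the popliteal lymph nodes of more than 1 animal, so a replicate is a pool. The markers of the sort, the cells per sample and the strain are not given in the sources used here. RNA was amplified as full-length cDNA with the SMART-Seq v4 kit, an approach for few cells that does not mark the strand, so reads of overlapping genes cannot be told apart. The values are normalised by the trimmed mean of M-values (TMM, a scaling between libraries), and a value of 1 stood for 230 to 295 reads.

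A protein bound for secretion is caught on the ribosome by the signal recognition particle and handed to the Sec61 channel, where signal peptidase trims its leader and the oligosaccharyltransferase adds sugar. Calnexin, calreticulin and the disulfide isomerases fold it, COPII vesicles carry it forward and COPI vesicles bring material back. XBP1, a transcription factor activated by the unfolded protein response, raises many of these genes in secretory cells, in part through a DNA element named the ER stress element.

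The promoters of the members were searched for that element because it is a well-known shared control site of ER chaperone genes. RefSeq promoters of GRCm38.p6, which run from 250 bases before to 50 bases after a transcription start, were matched for 47 of the 53 members (51 promoters). The letters CCAAT, then any 9 bases, then CCACG, on either strand, were in 3 of these 51 (5.88%) and in 39 of all 32851 promoters (0.119%). The 3 were those of Calr, Canx and Pdia6, printed 5′ to 3′ along the gene from 250 to 51 bases before the start with the matching letters in capitals. The Calr window is chr8:84846982-84847181, minus strand. The Canx window is chr11:50325724-50325923, minus strand. The Pdia6 window is chr12:17266339-17266538, plus strand.
Calr: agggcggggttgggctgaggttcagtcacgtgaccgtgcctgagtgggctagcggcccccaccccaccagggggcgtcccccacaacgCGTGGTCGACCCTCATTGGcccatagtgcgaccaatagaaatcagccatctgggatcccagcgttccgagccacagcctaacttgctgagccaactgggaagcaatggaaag
Canx: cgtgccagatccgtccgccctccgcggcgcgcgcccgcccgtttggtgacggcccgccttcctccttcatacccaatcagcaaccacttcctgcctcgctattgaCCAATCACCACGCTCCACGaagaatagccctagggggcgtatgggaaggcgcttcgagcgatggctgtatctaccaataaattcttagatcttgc
Pdia6: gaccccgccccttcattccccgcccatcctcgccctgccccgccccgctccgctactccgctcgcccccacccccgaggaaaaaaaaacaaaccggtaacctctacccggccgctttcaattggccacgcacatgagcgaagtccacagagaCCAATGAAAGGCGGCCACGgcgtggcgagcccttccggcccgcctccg
The match lay 162 to 144 bases before the start in Calr, where it reads on the opposite strand, 145 to 127 bases before it in Canx and 98 to 80 bases before it in Pdia6. The core of the unfolded protein response element, TGACGTG, was in 5 of 51 member promoters (9.80%; Copb1, Copb2, Sec16b, Sec23a and Sec24d) and in 661 of all promoters (2.01%). The cyclic AMP response element TGACGTCA was in 1 member promoter (Cope) and in 588 of all (1.79%). A match of letters is a description and does not show that a factor binds. The ER stress element was picked for its known place in ER chaperone genes, so its share among the members is not an independent result.

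The libraries held 17244925 to 18873542 reads in WT and 20741770 to 21538400 in Ngfr KO. Ngfr itself stood at 0.377, 0.677, 1.3 and 1.14 in WT replicates 1 to 4 and at 0.305, 0.353 and 0.184 in Ngfr KO replicates 1 to 3 (46 to 104 reads). Every Ngfr KO value was below every WT value, WT replicate 1 came closest to them, and the gene was too low for the main test. edgeR gave it a log2 change of -1.55 (edgeR adjusted p = 0.0574, not called) and DESeq2 one of -1.57 (DESeq2 adjusted p = 0.0132, called lower). Reads of a deleted gene can persist from exons that remain, and the deleted exons are not given. The summed FDC markers ran from 1842 to 5151 in WT and from 8026 to 10553 in Ngfr KO, and 14 of the 16 markers tested passed as higher (18.3% of all tested genes). Cxcl13, Clu and Mfge8 made up most of this sum in every sample. Of these, Cxcl13 overlapped between the genotypes and was not called (limma adjusted p = 0.18). The summed endothelial markers ran the other way from the FDC sums, from 116 to 162 in WT against 27.6 to 49.7 in Ngfr KO, with all 11 tested markers lower (15.8% of all tested genes). Of the endothelial markers, Emcn, Esam, Robo4 and Tie1 reached a value of 1 in at most 1 Ngfr KO sample, so they entered the test through WT. The FDC marker Tnfsf11 reached it in 1 WT sample and entered through Ngfr KO. The sums of both lists moved with the genotype, as did the results below, and their part in those results was not tested. In sorted bulk samples, fewer cells of a type and less RNA per cell cannot be told apart. A p-value here measures the spread between these pools, which the series calls independent.

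**Figure D1:**
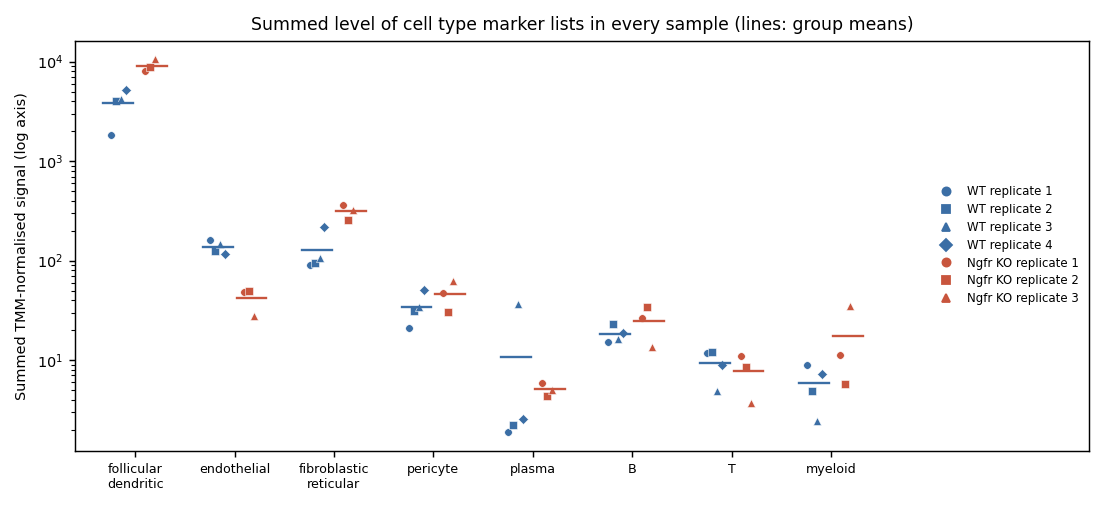
Summed TMM-normalised values of the marker genes of each cell type (log axis) in the 4 WT and 3 Ngfr KO samples, 1 point per sample. FDC markers sit at 8026 or above in Ngfr KO and at 5151 or below in WT, endothelial markers are lower in every Ngfr KO sample, and plasma cell markers are high in WT replicate 3 alone (36.7).

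Among the members that rose in Ngfr KO cells were the disulfide isomerases Pdia4, Pdia3 and Pdia6, the ribophorin Rpn1, the transcription factor Xbp1, the coat genes Copz1 and Sec13, and Ssr2 of the translocon-associated complex. Differences between the role groups were not tested. Of the 53 members, 49 reached a value of 1 in at least 3 samples and were tested. limma, a moderated linear model on log2(value + 1), called 15 members higher and 3 lower in Ngfr KO at a Benjamini-Hochberg adjusted p under 0.05. The 15 are 30.6% of the tested members, where 18.3% of all tested genes were called higher. The 3 are 6.12%, where 15.8% of all tested genes were called lower. The members were not matched to all genes by level, and the share called depends on level. In a separate fit of the 1297 genes that reached a value of 10 in at least 3 samples, 359 were called higher and 176 lower. Sec24a, among the 3 members called lower, reached a value of 1 in all 4 WT samples but in 1 Ngfr KO sample, so it entered the test through the WT samples only. With median ratio scaling the calls were 17 higher and 1 lower (20.9% and 14.2% of all tested genes). Without WT replicate 1, 9 members were called higher (12.4% of all tested genes), and without Ngfr KO replicate 1 also 9 (12.3%). Without WT replicate 2, or without Ngfr KO replicate 2, 10 were called higher (13.1% and 11.2%). The count called lower was 0 without WT replicate 1, WT replicate 2 or Ngfr KO replicate 1 (4, 4 and 2 at an unadjusted p under 0.05; 10.6%, 11.6% and 10.9% of all tested genes called lower), 1 without Ngfr KO replicate 2 (9.52%) and 5 without Ngfr KO replicate 3. edgeR on the recovered reads called the same 15 members higher and 0 lower (3 lower at an unadjusted p under 0.05), where 8.67% and 6.55% of its tested genes were called. DESeq2 called 17 higher and 1 lower (11.8% and 10.7% of its genes). Without the filter on low values limma called 11 higher and 0 lower (5 lower at an unadjusted p under 0.05), against 5.31% and 4.73% of all genes. The shares for edgeR, DESeq2 and no filter are over 16751, 17794 and 21176 genes, where the main test held 8326. These larger sets include low genes that the main filter left out, so their shares are not comparable with 18.3% and 15.8%. With samples weighted by their quality limma called 23 and 9, against 30.4% and 28.3%, and with trends in GC content and length removed 12 and 4, against 15.9% and 15.7%.

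In all 15 members called higher, every Ngfr KO value lay above every WT value, and 19 of the 49 tested members showed that order (22.6% of all tested genes). The reverse order held for 4 of 49 (18.3% of all). The log2 change was above 0 in 34 of the 49, against 51.7% of all tested genes, with a median of 0.18 against 0.02. Samples within a genotype also differed: among the 15, WT replicate 1 was the lowest WT sample in 13 and WT replicate 3 the highest in 11. WT replicate 1 also had the lowest sum of FDC markers, 1842, where the other WT samples had 3998 to 5151.

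**Figure D2:**
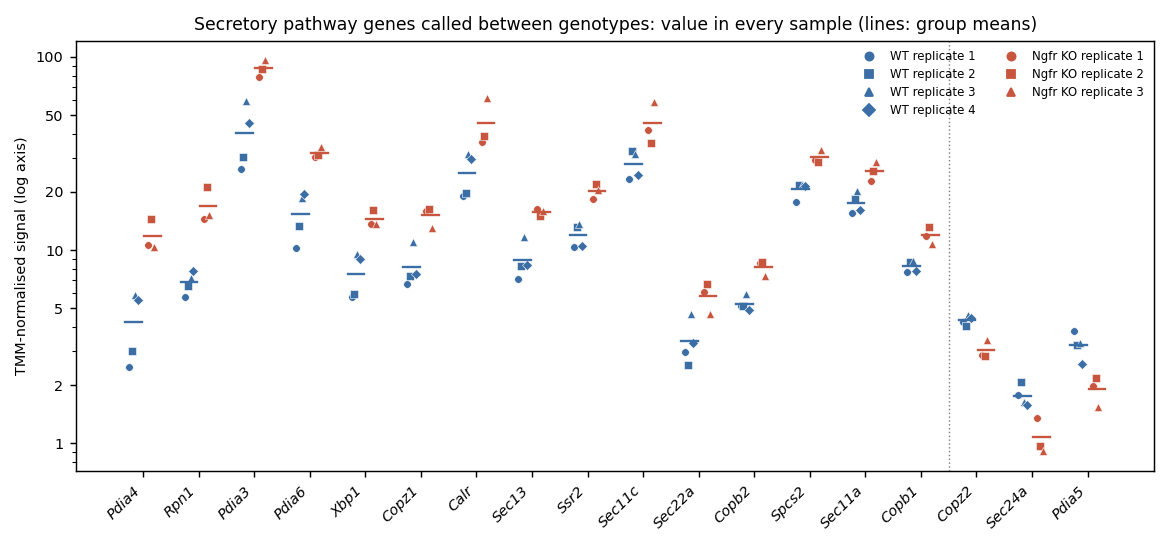
TMM-normalised values (log axis) of the 18 members called by limma, 1 point per sample for 4 WT and 3 Ngfr KO samples. In the 15 genes called higher, and in reverse in the 3 called lower (Pdia5, Sec24a, Copz2), the points of the genotypes do not overlap.

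Targeting and the channel come first in the pathway. None of the 5 tested genes of the signal recognition particle was called by limma (0 at an unadjusted p under 0.05), nor by edgeR or DESeq2. Srp72 had a log2 change of 0.26 and Srp68 one of 0.20, 2 subunits that pair within the particle. Srp9, Srp19 and Srp14 lay at 0.03, -0.01 and -0.17. The values of the genotypes overlapped in all 5.

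Sec61a1 and Sec61a2 encode alternative forms of the channel pore. Sec61a1 (chr6:88503579-88518905) stood at 3.31, 3.60, 3.59 and 3.85 in WT and at 4.89, 4.87 and 4.69 in Ngfr KO. Its groups did not overlap, and its log2 change of 0.34 (SE 0.14) missed the threshold (limma adjusted p = 0.0735). Sec61a2 stood at 2.46, 2.53, 2.04 and 1.98 in WT and at 4.35, 2.92 and 2.85 in Ngfr KO, also without overlap (0.42, limma adjusted p = 0.0672). DESeq2 called both higher, as did limma with median ratio scaling and with samples weighted by their quality. How reads shared by such close copies were assigned is not given in the sources used here.

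The small channel subunits had another pattern. Sec61b (chr4:47474658-47483242), the beta subunit, stood at 24.3, 25.9, 27.1 and 25.8 in WT and at 15.7, 13.4 and 29.5 in Ngfr KO. Ngfr KO replicates 1 and 2 were below all WT samples and replicate 3 was above them, and the log2 change of -0.46 (SE 0.24) was not called (limma adjusted p = 0.148). Sec61g, the gamma subunit, stood at 2.90, 3.05, 3.30 and 3.69 in WT and at 1.60, 1.55 and 3.16 in Ngfr KO (-0.48, limma adjusted p = 0.0619). Sec62, a partner of the channel for proteins that enter after their synthesis, stood at 29.9, 33.9, 32.6 and 34.1 in WT and at 17.7, 17.5 and 38.2 in Ngfr KO (-0.49, limma adjusted p = 0.145). Sec63, which recruits the chaperone BiP to the channel, had a log2 change of -0.27 (limma adjusted p = 0.224). None of the 6 channel genes was called by limma or edgeR (2 higher and 1 lower at an unadjusted p under 0.05 in limma; 2 higher and 0 lower in edgeR).

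The order with Ngfr KO replicates 1 and 2 below all WT samples and replicate 3 not below them was found in 5 of the 49 tested members (10.2%; Sec61b, Sec61g, Sec62, Srp14 and Ssr1) and in 750 of the 8326 tested genes (9.01%). Its share among the members is near that of all genes. Without Ngfr KO replicate 3, 12 members were called higher and 5 lower (17.2% and 16.5% of all tested genes), the lower ones being Sec61b, Sec61g, Sec62, Ssr1 and Copz2.

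**Figure D3:**
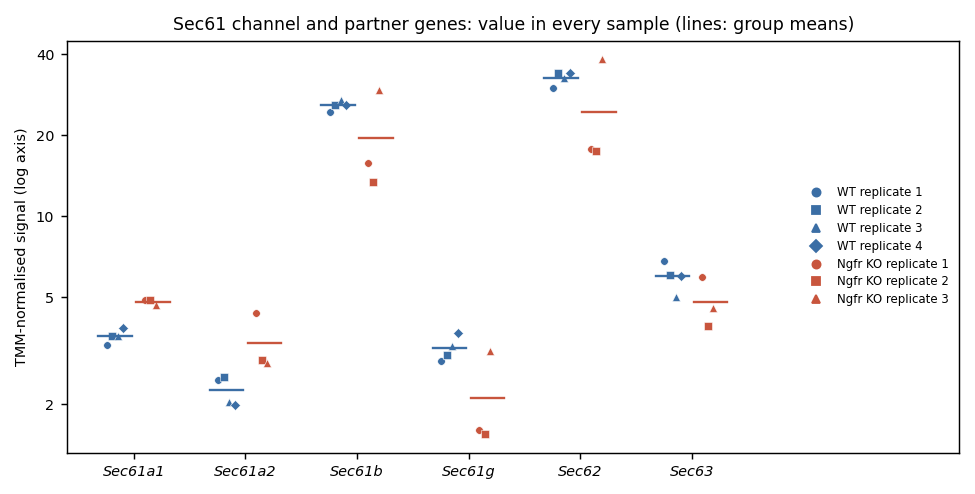
TMM-normalised values of the Sec61 channel genes and their partners in each sample, 4 WT and 3 Ngfr KO, 1 point per sample. Sec61a1 and Sec61a2 are above WT in all 3 Ngfr KO samples, while Sec61b, Sec61g and Sec62 are low in Ngfr KO replicates 1 and 2 and at the WT level or above it in replicate 3.

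The translocon-associated protein complex sits beside the channel and helps some proteins insert. Its beta subunit, Ssr2 (chr3:88575876-88588419), stood at 10.4, 13.2, 13.7 and 10.5 in WT and at 18.4, 21.9 and 20.5 in Ngfr KO. Every Ngfr KO sample was above every WT sample, its log2 change being 0.72 (SE 0.17; adjusted p = 0.00834 in limma). Ssr4, the delta subunit, stood at 21.6, 25.3, 25.5 and 20.8 in WT and at 25.5, 21.1 and 34.5 in Ngfr KO; the groups overlapped (0.18, limma adjusted p = 0.49). Ssr3 had a log2 change of 0.08 and Ssr1 one of -0.41 (limma adjusted p = 0.131). Thus 1 of the 4 subunits rose (25%, against 18.3% of all tested genes).

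Signal peptidase cuts the leader off the incoming chain. Sec11a and Sec11c are its alternative catalytic subunits. Sec11c stood at 23.2, 32.5, 31.3 and 24.4 in WT and at 41.8, 35.9 and 58.3 in Ngfr KO, without overlap (log2 change 0.67, SE 0.22; adjusted p = 0.033 in limma). Sec11a rose by 0.52 on the log2 scale (limma adjusted p = 0.0368), and the accessory subunit Spcs2 by 0.53 (limma adjusted p = 0.033). The small subunits Spcs1 (0.13) and Spcs3 (0.04) were not called. The calls of this enzyme were lost under several alternatives: over 20 of them Sec11c was called in 14, Spcs2 in 13 and Sec11a in 11. None of the 5 genes was called without WT replicate 1, without WT replicate 4 or without Ngfr KO replicate 1. The 2 ribophorins are subunits of the oligosaccharyltransferase, which adds sugar chains. Rpn1 (chr6:88084482-88105304) stood at 5.73, 6.54, 7.17 and 7.81 in WT and at 14.5, 21.3 and 15.2 in Ngfr KO. Its mean went from 6.81 ± 0.888 (SD, n = 4) to 17 ± 3.74 (SD, n = 3), a log2 change of 1.19 (SE 0.18; adjusted p = 9.3e-04 in limma). Rpn2 had a log2 change of 0.52, and its groups overlapped through WT replicate 4 at 22.1 (limma adjusted p = 0.0893).

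Among the disulfide isomerases, which form and reshuffle disulfide bonds, 3 rose and 1 fell. Of the 5 tested genes of this role, the oxidase Ero1l included, these are 60% and 20%, against 18.3% and 15.8% of all tested genes. Pdia4 (chr6:47796141-47813430) stood at 2.49, 2.99, 5.89 and 5.52 in WT and at 10.6, 14.4 and 10.4 in Ngfr KO. Its mean was 2.79-fold higher in Ngfr KO, 4.22 ± 1.73 (SD, n = 4) against 11.8 ± 2.24 (SD, n = 3), its log2 change being 1.34 (SE 0.25; adjusted p = 0.00218 in limma). All Ngfr KO samples were above the WT samples, and WT replicates 1 and 2 were the lowest.

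Pdia3 (chr2:121413775-121438687), the isomerase that works with calnexin and calreticulin on glycoproteins, stood at 26.2, 30.2, 59.1 and 45.3 in WT and at 78.4, 86.8 and 96.0 in Ngfr KO. It rose by 1.16 on the log2 scale (SE 0.27; adjusted p = 0.00709 in limma), although WT replicate 3 was above the other WT samples. Pdia6 (chr12:17266545-17284770), which also acts on the stress sensors of the ER, stood at 10.2, 13.4, 18.7 and 19.5 in WT and at 30.5, 30.9 and 34.0 in Ngfr KO. Its log2 change was 1.04 (SE 0.22; adjusted p = 0.0048 in limma), and the groups were well apart.

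Pdia5 (chr16:35397312-35490873), another isomerase of the family, ran the other way. It stood at 3.81, 3.23, 3.31 and 2.57 in WT and at 1.98, 2.18 and 1.55 in Ngfr KO, a log2 change of -0.54 (SE 0.16; adjusted p = 0.0214 in limma; edgeR adjusted p = 0.0643). Ero1l, the oxidase that recharges the isomerases, stood at 2.47, 2.07, 2.86 and 3.00 in WT and at 3.16, 2.88 and 2.57 in Ngfr KO, overlapping (0.11, limma adjusted p = 0.593).

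The lectin chaperones calreticulin and calnexin bind the same sugar on new glycoproteins. Calr (chr8:84841850-84846934) encodes the soluble form and stood at 19.1, 19.8, 31.6 and 29.6 in WT and at 36.3, 39.1 and 61.2 in Ngfr KO. It rose by 0.83 on the log2 scale (SE 0.25; adjusted p = 0.0228 in limma), with replicate 3 well above the other Ngfr KO samples. Canx (chr11:50293961-50325673) encodes the membrane-bound form and stood at 32.5, 29.4, 28.2 and 23.5 in WT and at 26.9, 25.5 and 35.1 in Ngfr KO. Its groups overlapped, its log2 change being 0.03 (SE 0.19; adjusted p = 0.906 in limma), so of the 3 members with the ER stress element letters printed above, Calr and Pdia6 were called and Canx was not.

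Xbp1 (chr11:5520659-5525893) stood at 5.69, 5.96, 9.56 and 9.01 in WT and at 13.7, 16.2 and 13.6 in Ngfr KO. Its mean went from 7.55 ± 2.01 (SD, n = 4) to 14.5 ± 1.5 (SD, n = 3), a log2 change of 0.88 (SE 0.20; adjusted p = 0.00632 in limma). All Ngfr KO samples were above the WT samples. Gene-level values do not show how much of the RNA carries the spliced form that makes the active factor.

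**Figure D4:**
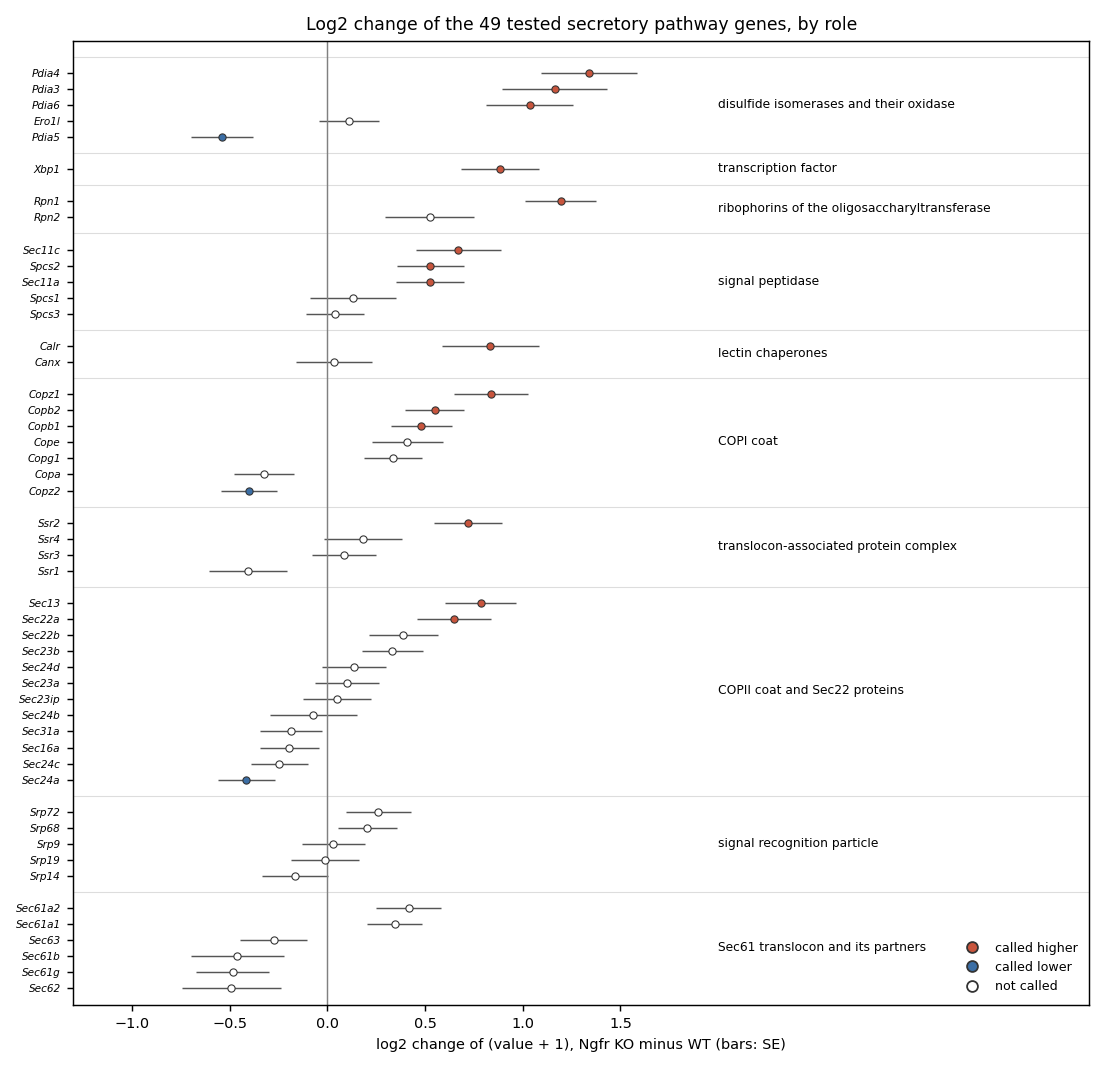
Log2 change (Ngfr KO minus WT, on log2 of the TMM-normalised value + 1) with its standard error for the 49 tested members, grouped by role. The largest positive changes are Pdia4 (1.34), Rpn1 (1.19), Pdia3 (1.16) and Pdia6 (1.04), and the largest negative one is Pdia5 (-0.54).

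COPII vesicles leave the ER, and their inner coat (Sec23 and Sec24) picks cargo while the outer coat (Sec13 and Sec31) shapes the vesicle. Of 12 tested COPII and Sec22 genes, 2 rose (16.7%) and 1 fell (8.33%), against 18.3% and 15.8% of all tested genes, so the share called is not above that of all genes in either direction. Sec13 (chr6:113728062-113740743) stood at 7.07, 8.30, 11.7 and 8.41 in WT and at 16.3, 15 and 16 in Ngfr KO, a log2 change of 0.78 (SE 0.18; adjusted p = 0.00705 in limma). Its groups did not overlap. The Sec13 protein also serves in the nuclear pore and in nutrient signalling, so it is not a marker of the coat alone. Its coat partner Sec31a had a log2 change of -0.19 and was not called.

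Sec22a, named as a vesicle trafficking protein, stood at 2.98, 2.53, 4.67 and 3.31 in WT and at 6.04, 6.70 and 4.68 in Ngfr KO (0.65, SE 0.19; adjusted p = 0.0211 in limma). WT replicate 3 and Ngfr KO replicate 3 were nearly equal. Sec24a, a cargo adaptor, stood at 1.78, 2.07, 1.63 and 1.57 in WT and at 1.35, 0.970 and 0.909 in Ngfr KO (-0.42, SE 0.15; adjusted p = 0.0442 in limma; edgeR adjusted p = 0.105). The other adaptors were not called: Sec24b lay at -0.07, Sec24c at -0.25 and Sec24d at 0.14 on the log2 scale. Sec24d stood at 3.78, 3.16, 2.45 and 2.63 in WT and at 3.08, 3.15 and 3.91 in Ngfr KO, so the groups overlapped.

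The Sec23 forms activate the coat GTPase. Sec23a stood at 2.22, 2.52, 2.79 and 1.73 in WT and at 2.28, 3.03 and 2.32 in Ngfr KO (log2 change 0.10, limma adjusted p = 0.651). Sec23b stood at 2.53, 2.68, 3.52 and 2.36 in WT and at 3.97, 3.78 and 3.43 in Ngfr KO (0.33, limma adjusted p = 0.111). Both overlapped between the genotypes. Sec22b, the fusion protein of these vesicles, lay at 0.39, and the scaffold Sec16a at -0.19. Sec23ip lay at 0.05. Sec16b, Sec22c and Sec31b were at or below 0.346 in every sample and were not tested.

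The COPI coat is built from several kinds of subunit. Of its 7 tested genes, 3 rose (42.9%) and 1 fell (14.3%), against 18.3% and 15.8% of all tested genes. Copz1 (chr15:103272714-103299868), a zeta subunit, stood at 6.69, 7.37, 11 and 7.52 in WT and at 16, 16.4 and 13 in Ngfr KO, a log2 change of 0.84 (SE 0.19; adjusted p = 0.00647 in limma). The other zeta subunit, Copz2 (chr11:96849870-96861203), stood at 4.24, 4.03, 4.59 and 4.47 in WT and at 2.87, 2.83 and 3.43 in Ngfr KO (-0.40, SE 0.14; adjusted p = 0.0466 in limma; edgeR adjusted p = 0.105). The 2 genes thus moved in opposite directions in limma, without overlap in either. Copb2 rose by 0.55 and Copb1 by 0.48 on the log2 scale (limma adjusted p = 0.0163 and 0.0327).

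Copa, the alpha subunit, stood at 10.03, 9.26, 9.07 and 9.22 in WT and at 7.59, 6.33 and 8.06 in Ngfr KO. All its Ngfr KO values were below WT, and its log2 change of -0.32 (SE 0.15) was not called (limma adjusted p = 0.117). Cope (0.41) and Copg1 (0.34) lay above WT in every Ngfr KO sample and were not called (limma adjusted p = 0.0944 and 0.0956). Copg2 had a value of 1 or more in 2 samples and was not tested.

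Alternative forms of 1 subunit were compared within each sample, which does not depend on the scaling between libraries. The pairs were chosen with the values known, so the ratios are given as a description, with no test. The Copz1 to Copz2 ratio was 1.58, 1.83, 2.40 and 1.68 in WT and 5.58, 5.82 and 3.8 in Ngfr KO. The ratio of Stt3a to Stt3b, alternative catalytic subunits of the oligosaccharyltransferase, was 0.546, 0.734, 1.44 and 0.778 in WT and 3.96, 3.49 and 3.42 in Ngfr KO. In both pairs the ratios of the genotypes did not overlap. The ratios overlapped between the genotypes for Sec61a1 to Sec61a2 (1.35 to 1.95 in WT, 1.13 to 1.67 in Ngfr KO) and for Sec11a to Sec11c (0.564 to 0.67 and 0.487 to 0.718). They also overlapped for Sec23a to Sec23b, Sec24a to Sec24b, Sec24c to Sec24d, Copg1 to Copg2 and Sar1a to Sar1b. These are all 9 pairs compared.

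Levels can be compared between genes only per length. Per kilobase of annotated exon, Spcs1 (22 ± 1.64, SD, n = 4) and Sec61b (20.3 ± 0.906, SD, n = 4) had the highest mean levels of the members in WT and did not differ beyond their spread. Srp14 followed at 15.3 ± 0.371 and Pdia3 at 12.8 ± 4.79, and these also overlapped within their spread. In Ngfr KO the highest means per kilobase were those of Pdia3 at 27.7 and Spcs1 at 25.0. Sec24a (0.165) and Sec16a (0.181) were the lowest of the tested members in WT.

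The other genes of the pathway, held in lists of 99 genes, were examined beside the members. Of the 96 in the table, 87 were tested, 31 were called higher and 2 lower. The 31 are 35.6% of those tested, against 18.3% of all tested genes. The median log2 change of the 87 was 0.36. These genes were not matched to all genes by level either. Without WT replicate 1 or WT replicate 2 the count called higher was 17 of the 87 (12.4% and 13.1% of all tested genes were called higher), and without Ngfr KO replicate 2 it was 16 (11.2%). Kdelr3, a called gene, reached a value of 1 in 1 WT sample and so entered the test through Ngfr KO. The count called lower was 1 without Ngfr KO replicate 1 and 6 without Ngfr KO replicate 3. Camlg, Mia2 and Creb3l3 were not analysed here.

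Of 15 tested sensors and targets of the unfolded protein response, 6 rose (40%, against 18.3% of all tested genes) and 9 were not called. Hspa5, which encodes BiP, the main ER chaperone, stood at 32.6, 42.3, 57.2 and 55.8 in WT and at 80.6, 86.9 and 91.0 in Ngfr KO (log2 change 0.89, SE 0.23; adjusted p = 0.0116 in limma). Its groups did not overlap. Herpud1, a degradation factor induced by ER stress, had the largest change of the list, 1.28 (limma adjusted p = 0.00214), and Ddit3, which encodes the stress factor CHOP, the smallest that was called, 0.55 (limma adjusted p = 0.0419; edgeR adjusted p = 0.065; called in 8 of 19 alternatives). Hsp90b1, the ER form of HSP90, lay above WT in every Ngfr KO sample with 0.53 and missed the limma threshold (adjusted p = 0.056; edgeR 0.0439). Dnajb9, a BiP co-chaperone and a known XBP1 target, stood at 4.19, 5.14, 10.5 and 5.44 in WT and at 2.93, 3.85 and 6.21 in Ngfr KO. Its groups overlapped (-0.43, limma adjusted p = 0.228), as did those of Atf4, the translation-controlled factor of the response (0.06, limma adjusted p = 0.859).

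Of 10 other oligosaccharyltransferase genes, 2 rose (20%) and 1 fell (10%), against 18.3% and 15.8% of all tested genes. The share that rose is near that of all genes. Stt3a, whose form works with the channel during translation, stood at 5.92, 6.64, 9.67 and 6.19 in WT and at 18.2, 21.1 and 15.7 in Ngfr KO (log2 change 1.27, limma adjusted p = 9.3e-04). Stt3b, whose form also acts after translation, stood at 10.8, 9.04, 6.72 and 7.96 in WT and at 4.58, 6.06 and 4.60 in Ngfr KO (-0.66, limma adjusted p = 0.0172; edgeR adjusted p = 0.0591). The values did not overlap in either gene.

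Of 15 other targeting and insertion genes, 3 rose (20%), a share near the 18.3% of all tested genes. Srprb, the beta subunit of the signal recognition particle receptor, rose by 0.77 on the log2 scale (limma adjusted p = 0.00586), and Wrb, an insertion factor of tail-anchored proteins, by 0.53 with overlapping values (limma adjusted p = 0.0406; edgeR adjusted p = 0.0574); the call of Wrb held in 11 of 19 alternatives. Srpr, the alpha subunit, was not called (0.11, limma adjusted p = 0.643). Of 9 other oxidoreductases and prolyl isomerases, 4 rose (44.4%, against 18.3% of all tested genes). These ran from Erp44, which retains unfinished proteins (0.99, limma adjusted p = 0.00343), to P4hb, the founding disulfide isomerase (0.68, limma adjusted p = 0.0205).

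Of 26 other coat and cargo genes, 11 rose (42.3%, against 18.3% of all tested genes) and 15 were not called. Surf4, a cargo receptor, stood at 6.81, 7.07, 11 and 10.8 in WT and at 22.6, 24.7 and 20.8 in Ngfr KO (log2 change 1.28, limma adjusted p = 0.001), and Gosr2, a Golgi fusion protein, had the smallest called change (0.45, limma adjusted p = 0.0368; called in 11 of 19 alternatives). Arcn1, the delta subunit of COPI, was not called (-0.15, limma adjusted p = 0.513). Of 10 tested genes of ER-associated degradation, 4 rose (40%, against 18.3% of all tested genes). Os9, a lectin that selects misfolded glycoproteins, stood at 5.04, 10.2, 10.4 and 10.9 in WT and at 21.5, 25.6 and 25.1 in Ngfr KO (1.35, limma adjusted p = 0.00165), and Ube2j1, a ubiquitin-conjugating enzyme, rose by 0.45 (limma adjusted p = 0.0367), a call that held in 10 of 19 alternatives.

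The CREB3 family holds membrane-bound transcription factors of secretion genes. Creb3 stood at 4.49, 5.19, 7.47 and 5.58 in WT and at 11.1, 13 and 10.5 in Ngfr KO (log2 change 0.92, limma adjusted p = 0.00308). Creb3l2 stood at 7.38, 5.81, 5.31 and 6.68 in WT and at 3.12, 3.32 and 2.54 in Ngfr KO (-0.86, limma adjusted p = 0.00235). The 2 tested genes of the family thus moved in opposite directions, each without overlap.

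**Figure D5:**
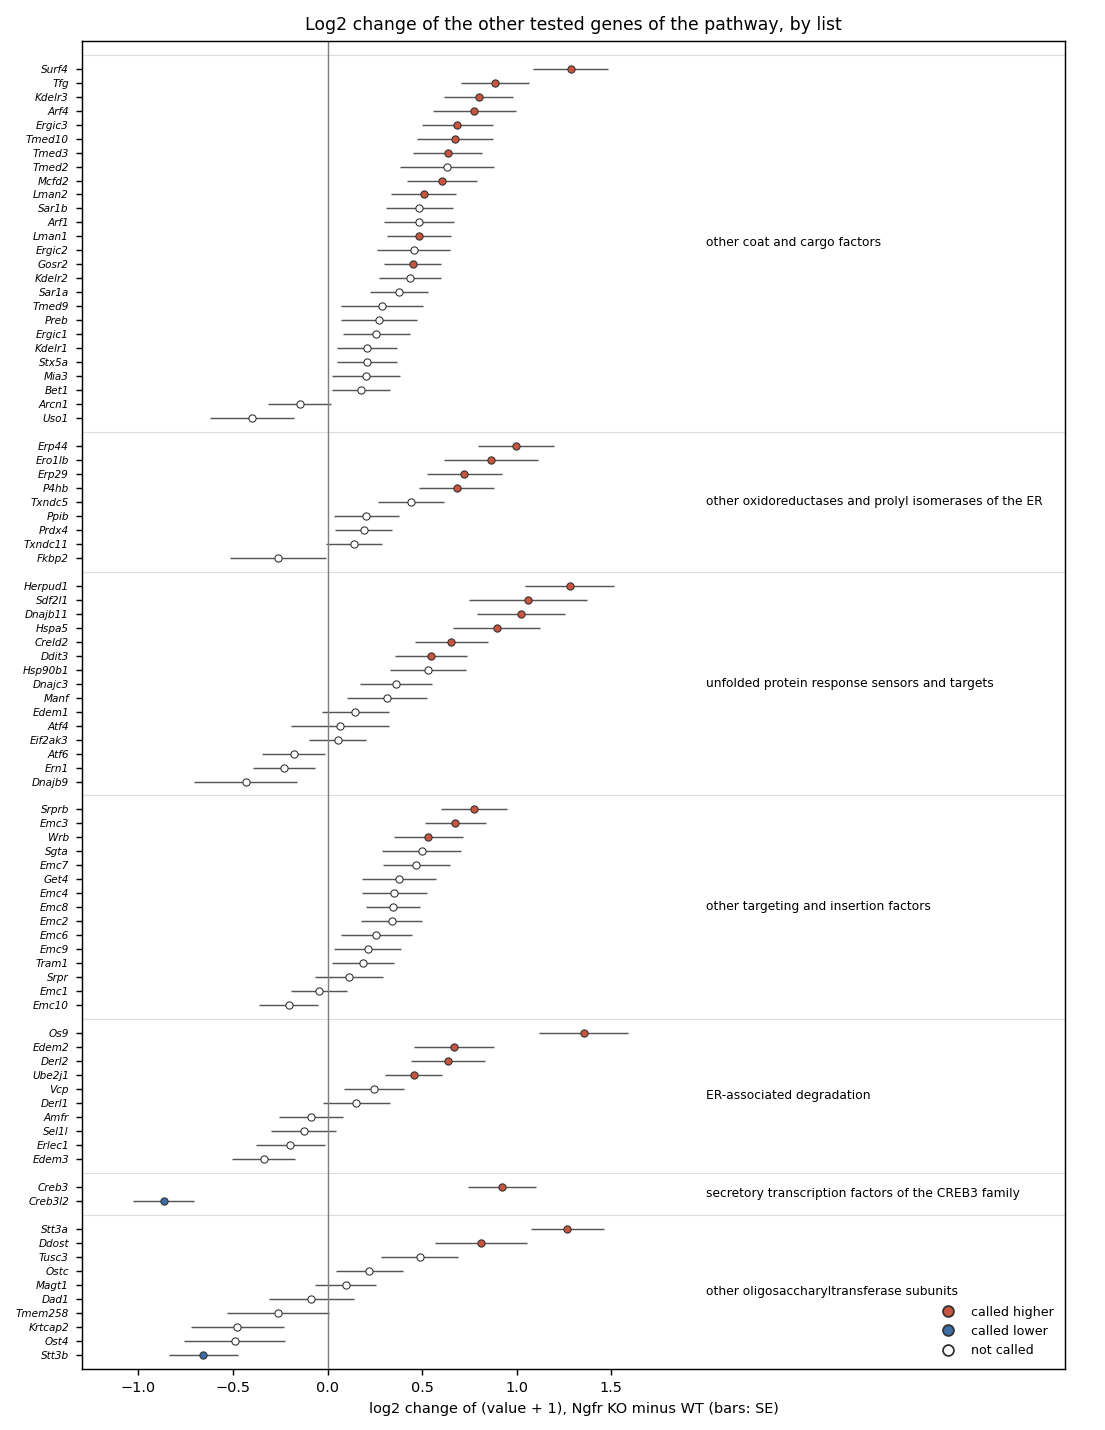
Log2 change (Ngfr KO minus WT, on log2 of the TMM-normalised value + 1) with its standard error for the 87 tested other genes of the pathway, by list. The changes run from Creb3l2 at -0.86 to Os9 at 1.35, and most called genes are above 0 (31 of 33).

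Plasma cells are rich in these transcripts, so their markers stand beside the results. WT replicate 3 had a summed value of 36.7, far above its group (1.89 to 2.53 for replicates 1, 2 and 4), and Ngfr KO samples had 4.31 to 5.93; limma called 0 of the 2 markers it tested and edgeR 0 of 8 (0 at an unadjusted p under 0.05 in both). Jchain supplied 31.8 of the sum in WT replicate 3, where the immunoglobulin light chain gene Igkc stood at 180 against 9.52 to 15.4 in the other WT samples. Prdm1, Irf4, Tnfrsf17 and Derl3 were at 0 in at least 1 sample each. Without WT replicate 3, 18 members were called higher and 2 lower (20.2% and 16.4% of all tested genes). The WT and Ngfr KO samples had B cell sums of 15.3 to 23 and of 13.6 to 34.4, T cell sums of 4.90 to 12 and of 3.69 to 11, and myeloid sums of 2.44 to 8.93 and of 5.75 to 35.2. The fibroblastic reticular cell sums were higher in Ngfr KO (254 to 364 against 90.6 to 216). Dcn alone, a large part of these sums, stood at 37.5 to 69.3 in WT and at 151 to 248 in Ngfr KO. limma called 4 of the 7 tested markers higher (18.3% of all tested genes), and edgeR called 2 of 8. Pdpn (-0.53) and Ccl21a (-0.71) had log2 changes below 0 and were not called. The pericyte sums overlapped (20.9 to 50.9 against 30.3 to 61.8). Single markers of these types were called higher too: Ms4a1 of B cells (log2 change 0.79, limma adjusted p = 0.0472), Lyz2 of myeloid cells (1.70, limma adjusted p = 0.0336), with 28.1 in Ngfr KO replicate 3, and Kcnj8 of pericytes (0.73, limma adjusted p = 0.0135). The values of Ms4a1 and of Lyz2 overlapped between the genotypes, and edgeR called neither (edgeR adjusted p = 0.0693 and 0.0576). The part of these cells in the changes of the members was not tested.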

How the data were processed

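Gene expression was measured by RNA sequencing of sorted cells in 4 WT and 3 Ngfr KO samples. The deposited table holds TMM-normalised signal per gene made by the authors; per the submitters' processing notes, bcl2fastq 2.20.0.422 and mm10 were used, while aligner, counter and annotation are not given in the sources used here. In every sample 100% of values were whole multiples of 1 step (tolerance 0.01 reads), which returned the reads; this gives relative depth. All 7 columns matched a sample by title. Identifiers matched GENCODE M21 (GRCm38) for 21137 genes, 39 did not match, and lengths are summed exons.

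The main test was limma 3.58.1 (R 4.3.3) with a trended prior on log2(value + 1), for the 8326 of 21176 genes that reached a value of 1 in 3 or more samples, WT against Ngfr KO, Benjamini-Hochberg adjusted over all of them, called at adjusted p under 0.05. Fold changes on that scale understate low genes. Alternatives were pseudocounts of 0.1 and 5, no filter or a minimum of 10, quantile and median ratio scaling, a robust prior, array weights, thinned reads, a replicate block, GC and length trends removed, edgeR 4.0.16 and DESeq2 1.42.0 on the recovered reads (3382 genes without an adjusted p), and each replicate left out with the filter kept.

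The members and lists were chosen with earlier results of these data known. The genes named with all values were the called members with the 8 largest changes in each direction and a list of defining genes; in other lists they were the called genes with the largest and smallest change and a few defining genes. Sec61a2, Sec61g, Sec62, Ssr2, Sec11c, Sec22a, Kdelr3, Ms4a1, Lyz2, Kcnj8 and the paralog pairs were named after their values were seen.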

Additional observations from a re-analysis of the deposited data

Results flagged for a closer look

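For 57 results over the 4 WT samples, the gap between the highest or lowest sample and its neighbour was divided by the range of the group. It passed the 95% critical value of Dixon's test in 3, where chance gives 2.85. The WT value of Os9, the glycoprotein-selecting lectin, had a gap of 0.881 of its range, since WT replicate 1 stood at 5.04 and the others at 10.2 to 10.9. The WT sum of fibroblastic reticular cell markers had a gap of 0.878, with WT replicate 4 at 216 and the others at 90.6 to 106. The WT sum of plasma cell markers had a gap of 0.981, with WT replicate 3 at 36.7.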

How the results depend on the processing

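Over 20 alternatives, Copz1, Sec13, Pdia3, Pdia4, Pdia6, Rpn1, Xbp1 and Ssr2 were called higher in all, Copb2 in 16 of 19, Calr in 15, Sec22a in 14 of 19, Sec11c in 14, Spcs2 in 13, Copb1 in 12 and Sec11a in 11. Pdia5 was called lower in 13 of the 19 that tested it, Copz2 in 7 and Sec24a in 6. Over the 40 named genes, 669 of 782 values kept direction and side of the threshold, 78 lost the call, 20 gained it and 15 changed sign. Those 15 were all of genes not called. Canx was -0.025 with quantile normalization, -0.088 with array weights, and -0.10 to 0.12 with a replicate left out (lowest without Ngfr KO replicate 3, also below 0, at -0.051, without WT replicate 4). Ssr4 was -0.020 with GC and length trends removed, and Sec23a -0.015 with array weights. Atf4 was -0.042 with quantile normalization, -0.16 with GC and length trends removed, and -0.14 to 0.26 with a replicate left out (below 0 without WT replicate 1, WT replicate 2 or Ngfr KO replicate 2). Srpr was -0.052 with array weights, -0.037 with GC and length trends removed, and -0.052 (without Ngfr KO replicate 3) to 0.23 with a replicate left out. Of all genes, 2844 were called, against 4881 with array weights and 1727 to 3051 with a replicate left out. With the minimum of 10 fewer genes were tested, 1297, and 535 were called (359 higher and 176 lower). Members called higher, 15, became 23 with array weights and 9 to 18 with a replicate left out. Members called lower, 3, became 0 with no filter (5 at an unadjusted p under 0.05), 1 with median ratio scaling, 9 with array weights, 0 with edgeR (3 unadjusted), 1 with DESeq2 and 0 to 5 with a replicate left out. With the minimum of 10 the count of members called lower was 0 (0 unadjusted). None of the 3 reached 10 in any sample, so that setting could not test them. Other pathway genes called higher, 31, became 14 with no filter, 49 with array weights and 16 to 37 with a replicate left out. Those called lower, 2, became 11 with array weights, 1 with edgeR, 4 with GC and length trends removed and 1 to 6 with a replicate left out. With the minimum of 10 the count of these called lower was 0 (0 unadjusted). Neither of the 2, Stt3b and Creb3l2, reached 10 in 3 samples, so that setting could not test them. The cause of these shifts was not tested. The median change of all genes was 0.02, and -0.08 in DESeq2 over its own larger set of genes. Labels give both genotypes replicate numbers, and the main test did not pair the samples. The deviations of same-numbered samples correlated at 0.298, -0.0593 and -0.0108 for replicates 1 to 3, and 0.298 was the highest of all pairs. Ngfr KO replicate 2 correlated best with WT replicate 3 (0.111). With so few samples, centred within each group, these correlations cannot show whether the numbers pair the samples. With the replicate block, in which WT replicate 4 adds nothing to the change, 2717 genes, 11 members higher (10 of the 15) and 1 lower were called, 28 other pathway genes were called higher and 3 lower, and Canx was -0.051.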
